A study of Homo sapiens with 3 samples.

Results

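The comparison described here sets the array of A549 cells transfected with an siRNA against TAZ (siTAZ) against the array of A549 cells transfected with a control siRNA (siNC). It uses 2 of the 3 arrays of the series. The third is from A549 cells given an siRNA against YAP (siYAP). Its values are given for the genes that differed at least 2-fold and for some others. A549, from a human lung carcinoma, is an established cell line. Cells of all 3 groups were transfected with Lipofectamine RNAiMAX, and total RNA was taken with TRIzol after 48 h; 500 ng of it went into labelling with the GeneChip WT PLUS kit. The siRNA sequences were not given in the sources used here.

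Each group had 1 array, so no difference below has a replicate, an error or a test, and each one compares 2 arrays rather than 2 conditions. Levels are the deposited values on a log2 scale, and a difference is the siTAZ level minus the siNC level, so that -1 is a level 2-fold lower in the siTAZ array. Each gene was represented by its probe set with the highest mean, and 10768 of 14884 named genes had a mean of at least 4.27, which is the median level of all probe sets together. The siYAP and siTAZ differences share the siNC array, so a high or low siNC value enters both. In bulk RNA, fewer cells of a type and less RNA per cell cannot be told apart.

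TAZ, encoded by WWTR1, is a transcriptional co-activator that the Hippo pathway's LATS kinases keep out of the nucleus. In the nucleus TAZ and its paralogue YAP have no DNA-binding domain of their own and bind mainly to TEAD transcription factors, often at elements that also hold AP-1 sites. Genes of the matrix, the cytoskeleton and secreted growth factors are among their best known targets, and in lung cancer cells both proteins are studied as drivers of growth and invasion.

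The targeted gene was read first. WWTR1 was at 6.50 in the siNC array, 5.81 in siTAZ and 6.50 in siYAP. The siTAZ array was the low one, by 1.61-fold, in the direction its label gives, and the remaining signal of this single probe set was 62.2% of the siNC signal. YAP1 was at 8.45, 8.24 and 6.87 in the same order, so the array labelled siYAP was the low one for YAP1 and the siTAZ minus siNC difference was -0.21.

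Epithelial identity genes were measured on all arrays. Of 23 kept, 8 were lower, 9 identical and 6 higher in the siTAZ array, with differences from -0.42 to 0.54. KRT18, a keratin of simple epithelia, was at 11.56, 11.38 and 11.56 in the siNC, siTAZ and siYAP arrays. EPCAM, an epithelial adhesion molecule, was at 8.23, 8.13 and 8.19 in the same order. Another keratin, KRT7, was lower in the siTAZ array (-0.42), so KRT18 and EPCAM do not stand for the whole list. Of 24 leukocyte marker genes asked for, 11 were named, with a mean level over the 11 of 4.80 in the siNC array and 4.81 in the siTAZ array. Of the 9 that were kept, CD68, a lysosomal protein of macrophages that other cells also make, was 0.57 higher in the siTAZ array. The 9 named endothelial markers averaged 4.20 and 4.25, and the 4 named fibroblast markers 4.76 and 4.92. PECAM1, a defining endothelial gene, was below 4.27 on every array, and the values of PTPRC and COL1A1 were not analysed here.

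Of the 10768 genes, 26 (0.241%) reached 2-fold in the lower direction and 8 (0.0743%) in the higher. At 1.5-fold the counts were 110 lower (1.02%) and 82 higher (0.762%). By any amount, 2341 genes (21.7%) were lower and 3201 (29.7%) higher, while 5226 genes had exactly the same value on both arrays. Exact ties were most frequent among dim genes, at 68.2% of genes with a mean under 5 and 19.4% of those at 9 or over, so a difference of 0 does not show that a gene's RNA was equal. The median difference was 0, and 71.6% of genes lay within 0.1 of it. With the mean of the siNC and siYAP arrays as reference, 12 of the 26 and 1 of the 8 genes still reached 2-fold. The siTAZ array held more large differences downward but more small ones upward.

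**Figure D1:**
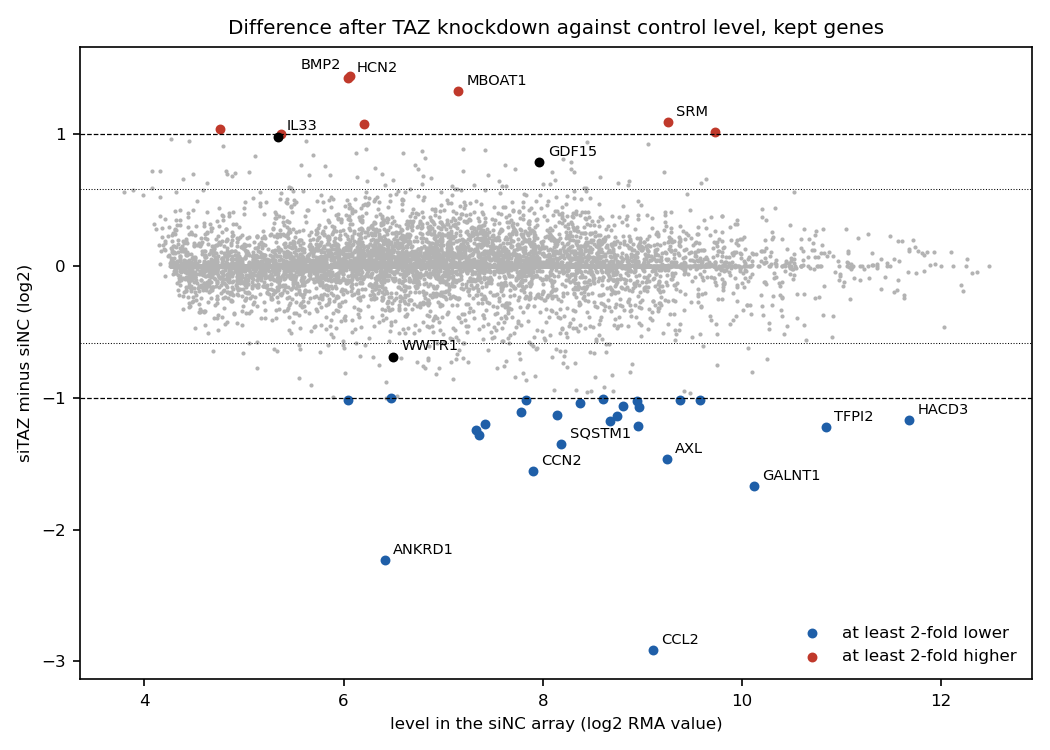
Each point is 1 of 10768 genes, with its log2 level in the siNC array on the horizontal axis and its siTAZ minus siNC log2 difference on the vertical axis. Dashed lines mark 2-fold and dotted lines 1.5-fold; the differences run from -2.92 (CCL2) to 1.45 (BMP2).

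Among the TEAD factors that TAZ binds and the VGLL cofactors, 0 genes reached 1.5-fold. Of 8 TEAD and VGLL genes, 6 had identical values, TEAD1 was lower in the siTAZ array (-0.18) and VGLL3, a TEAD cofactor, higher (0.54). TEAD2, TEAD3 and TEAD4 were among the 6 with identical values. The 24 measured Hippo kinases and upstream regulators split into 9 lower, 8 identical and 7 higher, and 0 reached 1.5-fold. The lowest of them were AJUBA, a LIM protein that restrains LATS (-0.51), and FAT1, an atypical cadherin (-0.45). The highest were NF2, the scaffold that brings LATS to the membrane (0.48), and LLGL1, a polarity protein (0.45).

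Genes named as YAP/TAZ targets in the literature were mostly lower in the siTAZ array. Of 49 listed, 33 were named and 31 kept; 21 were lower, 3 identical and 7 higher, with a median of -0.14 against 0 over all kept genes. All 10 that reached 1.5-fold were lower, against a background of 1.02% in that direction. The list was put together with earlier results of these data known, so its count is a description.

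ANKRD1, a muscle and stress-response ankyrin protein, was at 6.41 in the siNC array, 4.18 in siTAZ and 5.84 in siYAP. CCN2, a secreted matricellular growth factor also called CTGF, was at 7.90, 6.35 and 6.81 in the same order. AXL, a receptor tyrosine kinase for GAS6, was at 9.24, 7.78 and 8.06. In each of these 3 genes the siNC array was the highest and the siTAZ array the lowest. The siTAZ levels were 4.70-fold lower than siNC for ANKRD1, 2.94-fold for CCN2 and 2.76-fold for AXL, and the ANKRD1 level in the siTAZ array lay under the 4.27 set as the filter. Averaging the probe sets of CCN2 gave -0.79, short of 2-fold. The second CCN2 probe set was under 4.27 on every array, at 1.87 in siNC, 1.84 in siTAZ and 1.87 in siYAP.

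DOCK5, an exchange factor for RAC, was at 9.38 in the siNC array, 8.36 in siTAZ and 8.91 in siYAP, with the siTAZ array again the lowest. The other members at 1.5-fold were UBASH3B, a tyrosine phosphatase that acts on receptor kinases (-0.82), the focal adhesion protein TNS3 (-0.77), the growth factor-binding membrane protein CRIM1 (-0.75), the matrix glycoprotein THBS1 (-0.70), the angiomotin AMOTL2 (-0.60) and the growth factor FGF2 (-0.59). For UBASH3B the siTAZ and siYAP arrays were equally low, at 7.87 each against 8.69. The highest members of the list were the LIM protein ZYX (0.57), VGLL3 (0.54) and the forkhead factor FOXF2 (0.53), all 3 short of 1.5-fold.

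The promoters shown were picked from the genes at 2-fold because they hold a match to a letter pattern for TEAD or AP-1 factors. Sequences are RefSeq's, on build GRCh38.p14, and cover the 250 bases before an annotated start, written on the gene's own strand. Capitals mark the TEAD hexamer GGAATG, or CATTCC where it lies on the other strand, and the AP-1 heptamer TGANTCA. N is any base, so the pattern, though not each match, reads the same on both strands. The first 4 windows are ANKRD1 at chr10:90921088-90921337 (minus strand), CCN2 at chr6:131951373-131951622 (minus strand), the downstream of 2 AXL windows at chr19:41226505-41226754 (plus strand) and OLFML3 at chr1:113979224-113979473 (plus strand), and each holds a TEAD hexamer.
ANKRD1: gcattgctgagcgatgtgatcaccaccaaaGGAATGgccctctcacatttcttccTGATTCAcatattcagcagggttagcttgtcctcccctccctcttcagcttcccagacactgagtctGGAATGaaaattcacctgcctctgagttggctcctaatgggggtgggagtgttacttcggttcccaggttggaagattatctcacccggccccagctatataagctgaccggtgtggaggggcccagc
CCN2: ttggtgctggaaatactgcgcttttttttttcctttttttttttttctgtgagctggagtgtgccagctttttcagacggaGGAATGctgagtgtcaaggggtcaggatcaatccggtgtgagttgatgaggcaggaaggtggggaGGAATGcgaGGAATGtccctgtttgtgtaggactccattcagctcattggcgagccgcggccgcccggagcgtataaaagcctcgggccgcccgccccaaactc
AXL: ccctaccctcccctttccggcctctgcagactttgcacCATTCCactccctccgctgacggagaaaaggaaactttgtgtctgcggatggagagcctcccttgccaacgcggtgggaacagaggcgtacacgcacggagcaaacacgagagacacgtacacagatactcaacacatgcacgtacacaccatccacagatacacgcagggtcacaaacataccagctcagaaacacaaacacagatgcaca
OLFML3: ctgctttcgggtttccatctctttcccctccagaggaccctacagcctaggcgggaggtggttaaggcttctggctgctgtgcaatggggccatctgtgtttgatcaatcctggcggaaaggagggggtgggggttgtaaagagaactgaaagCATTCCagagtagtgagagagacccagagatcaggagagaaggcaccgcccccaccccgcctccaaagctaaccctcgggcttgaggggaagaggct

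ANKRD1 has the hexamer 220 and 128 bases before the start and an AP-1 heptamer at 195, between them. CCN2 has 3 hexamers, at 169, 104 and 95 bases before the start. AXL has it once, at 212, and its other annotated window has no match. OLFML3, an olfactomedin-like secreted protein that was on none of the target lists, has it at 97. CCL2, the lowest gene of the comparison, had no window, and the windows of GALNT1 held neither pattern.

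A second set is shown because it holds the AP-1 heptamer without the TEAD hexamer: TFPI2 at chr7:93890754-93891003 (minus strand), F2RL2 at chr5:76623404-76623653 (minus strand), IL11 at chr19:55370464-55370713 (minus strand) and GXYLT2 at chr3:72887796-72888045 (plus strand). The first 3 genes were lower in the siTAZ array and GXYLT2 was higher.
TFPI2: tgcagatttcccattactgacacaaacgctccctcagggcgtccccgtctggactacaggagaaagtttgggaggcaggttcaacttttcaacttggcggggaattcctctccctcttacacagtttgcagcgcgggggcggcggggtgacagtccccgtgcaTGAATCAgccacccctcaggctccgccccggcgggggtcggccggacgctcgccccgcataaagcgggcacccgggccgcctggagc
F2RL2: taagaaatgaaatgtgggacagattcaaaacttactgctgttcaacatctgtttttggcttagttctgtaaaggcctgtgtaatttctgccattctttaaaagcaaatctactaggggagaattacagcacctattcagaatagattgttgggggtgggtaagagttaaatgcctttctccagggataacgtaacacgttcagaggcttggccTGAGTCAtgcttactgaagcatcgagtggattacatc
IL11: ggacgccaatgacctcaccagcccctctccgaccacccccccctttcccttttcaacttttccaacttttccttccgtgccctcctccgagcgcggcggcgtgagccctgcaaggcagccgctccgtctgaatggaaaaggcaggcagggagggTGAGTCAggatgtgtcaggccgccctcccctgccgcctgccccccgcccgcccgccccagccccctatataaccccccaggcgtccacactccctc
GXYLT2: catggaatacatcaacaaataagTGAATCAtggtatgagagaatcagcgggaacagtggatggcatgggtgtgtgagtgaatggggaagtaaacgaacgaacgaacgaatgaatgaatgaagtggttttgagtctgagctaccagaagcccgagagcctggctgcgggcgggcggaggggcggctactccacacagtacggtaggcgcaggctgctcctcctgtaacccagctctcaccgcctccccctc

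The heptamer lies 87 bases before the start in TFPI2, 37 in F2RL2, 96 in IL11 and 227 in GXYLT2. Its middle base is G in F2RL2 and IL11, A in TFPI2 and GXYLT2, and T in ANKRD1. Over all 35116 windows, 11.9% hold the TEAD hexamer and 6.57% the AP-1 heptamer, and over the 8315 kept genes with a window 1078 (12.96%) hold the hexamer and 534 (6.42%) the heptamer. Of the 19 genes with a window that were lower by 2-fold or more, 4 hold the hexamer and 4 the heptamer, and of the 6 at least 2-fold higher, 0 and 1. Of the 82 such genes at 1.5-fold, 10 hold the hexamer (12.2%) and 9 the heptamer, and of the 68 at least 1.5-fold higher, 6 and 2. The YAP/TAZ target list holds the hexamer in 12 of 25 genes with a window. At 1.5-fold the hexamer share among lower genes was thus near the 12.96% of kept genes. A match is a run of letters and not a measured binding site, and enhancers were not searched.

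**Figure D2:**
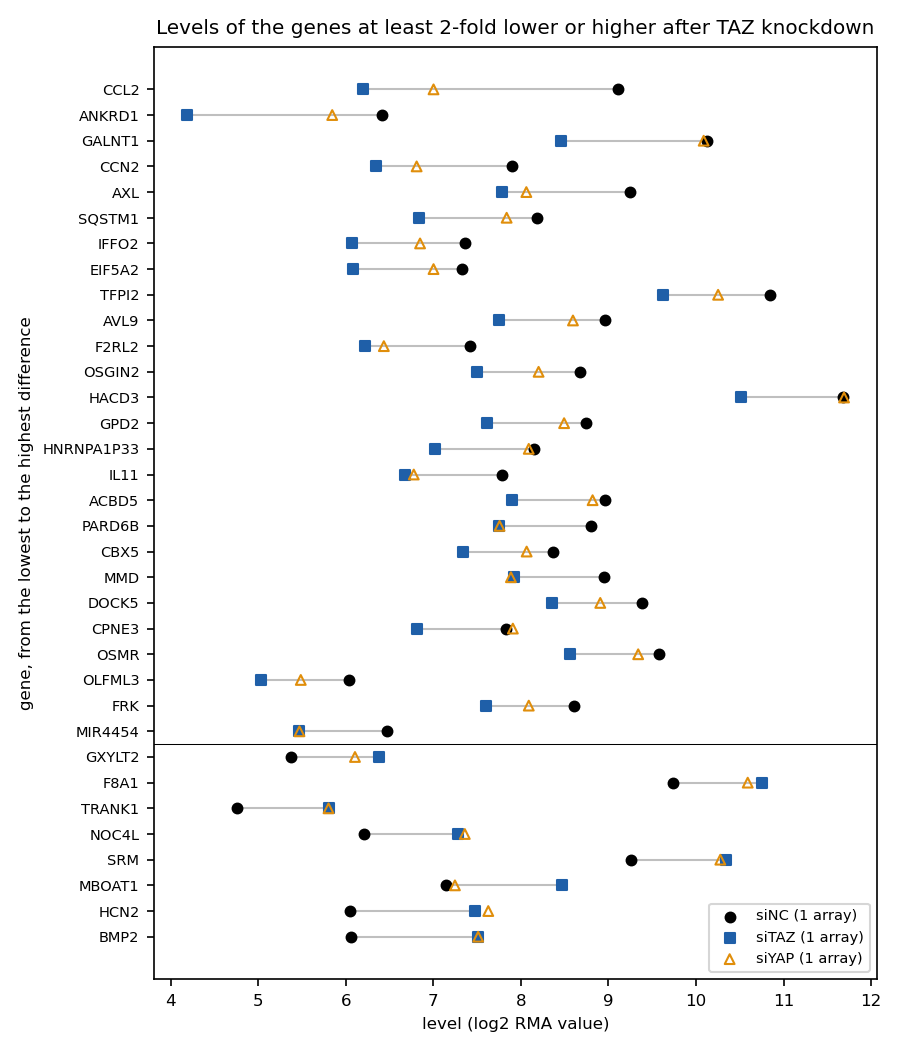
Log2 levels of the 34 genes that differed at least 2-fold between the siTAZ and siNC arrays, with 1 point per array (siNC, siTAZ, siYAP) and genes ordered by their difference. GALNT1 and HACD3 have siNC and siYAP points that nearly coincide, while for BMP2 and HCN2 the siTAZ and siYAP points lie together above siNC.

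Secreted signals included the lowest gene of the comparison. CCL2, the chemokine that attracts monocytes, was at 9.11 in the siNC array, 6.19 in siTAZ and 7.001 in siYAP, so both knockdown arrays were low and siTAZ the lower, by 7.55-fold from siNC. IL11, a cytokine that signals through gp130, was at 7.78, 6.67 and 6.78 in the same order. Of 31 chemokine and interleukin genes, 10 were lower, 16 identical and 5 higher. CXCL8 (-0.58) and IL18 (-0.52) were lower, while IL33, an alarmin released from nuclei, was 0.98 higher, CXCL16 0.56 and IL15 0.52. Chemokines and interleukins thus differed in both directions. CSF1, the macrophage growth factor, was lower (-0.70), the only one of 8 other secreted cytokines to reach 1.5-fold.

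BMP2, a bone morphogenetic protein, had the largest difference upward. It was at 6.06 in the siNC array, 7.50 in siTAZ and 7.51 in siYAP, so that both knockdown arrays were high by nearly the same amount. Of 39 BMP and TGF-beta pathway genes, 12 were lower, 20 identical and 7 higher. GDF15, a distant family member and a p53 target, was 0.79 higher, and SMAD3, a signal transducer of TGF-beta, was at -0.33. TWSG1, a secreted BMP-binding protein, was 0.74 higher. Of 41 Wnt genes, WLS, the carrier that brings Wnt ligands to the surface, was the single one at 1.5-fold (0.95), with FZD1, a Wnt receptor, at 0.56 and the kinase GSK3B at -0.51. In the Notch list of 29 genes 0 reached 1.5-fold, and the ligands JAG1 and JAG2 were at -0.45 and -0.44.

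Growth factor genes outside these families were lower more often than higher in the deposited values. Of 39 fibroblast, vascular and insulin-like growth factor genes, 15 were lower (38.5%) and 6 higher (15.4%). Over all kept genes 21.7% were lower and 29.7% higher. A new quantile normalization, which moves tied genes off 0, gave 19 lower and 18 higher on this list. A subtracted loess trend gave 24 and 15. CCN2 and FGF2 were the lowest, and IGFBP4, which binds insulin-like growth factors, was 0.66 higher. Of 11 EGF family ligands and ERBB receptors, 6 were lower, 4 identical and 1 higher, and 0 reached 1.5-fold, with EGFR at -0.53 and its relative's ligand NRG1 at -0.51.

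Receptors at 1.5-fold were lower in the families examined here, but they were few. Over all kept genes 1.02% were lower and 0.762% higher at 1.5-fold, so a count of 0 higher is near that share. Among 30 receptor tyrosine kinases outside the ERBB family, AXL and the orphan-type receptor ROR1 (-0.86) reached 1.5-fold, and 0 were that much higher. Of 121 G protein-coupled receptors, 31 were lower, 62 identical and 28 higher. The 5 at 1.5-fold were F2RL2, a protease-activated receptor (-1.20), the oxytocin receptor OXTR (-0.99), the adhesion receptor ADGRG6 (-0.95), GPR135 (-0.65) and GPR180 (-0.64). ADGRG6 was lower still in the siYAP array, at -1.15 from siNC. With the mean of the siNC and siYAP arrays as reference, 2 of the G protein-coupled receptors and 1 of the receptor tyrosine kinases were at 1.5-fold. F2RL2 was at 7.42 in the siNC array, 6.22 in siTAZ and 6.43 in siYAP, with siNC alone high. OSMR, a gp130-partner receptor for oncostatin M, was at 9.58, 8.57 and 9.34, so that the siTAZ array alone was low. It was the single one of 34 cytokine receptor, JAK, STAT and SOCS genes at 1.5-fold; JAK1 was at -0.41 and STAT3 at -0.38.

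Kinases and phosphatases of the inner pathways differed in a few members. FRK, a kinase of the SRC family, was at 8.61 in the siNC array, 7.60 in siTAZ and 8.09 in siYAP, and the siYAP level lay between the others. MAPK4, an atypical MAP kinase, was 0.88 higher, the single one of 51 MAP kinase cascade genes at 1.5-fold. Its siYAP minus siNC difference was 0.89. DUSP5, a nuclear phosphatase of ERK, was lower (-0.75), as was PHLPP2, a phosphatase of AKT (-0.68). The mean of both DUSP5 probe sets was -0.58, short of 1.5-fold. EIF4EBP2, a translation repressor that mTOR phosphorylates, was 0.61 higher. In the siYAP array EIF4EBP2 was 1.13 higher than in siNC.

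Transcription factor families held some genes at 1.5-fold, beside 1.02% lower and 0.762% higher over all kept genes. Of the ETS, FOX, SOX and GATA genes 2.70% were that much lower and 2.70% higher. Of the zinc finger genes the shares were 0.980% and 0.490%. Of 21 AP-1, ATF and EGR genes, JUND was 0.87 higher, while FOSL1 was at -0.49 and JUN at -0.34, so AP-1 members differed in both directions. Of 74 ETS, FOX, SOX and GATA genes, ETS1 (-0.69) and FOXM1 (-0.65) were lower and FOXD1 (0.83) and SOX4 (0.62) higher. The second FOXD1 probe set had a difference of 0. Of 23 KLF and SP genes 0 reached 1.5-fold, with KLF2 lowest at -0.55, and among 87 homeobox genes 0 did. The 408 zinc finger genes had 75 lower, 217 identical and 116 higher, with ZNF460 (-0.83), ZBTB10 (-0.76), ZBTB44 (-0.73) and ZNF358 (-0.67) at 1.5-fold below and ZNF319 (0.65) and ZNF300 (0.63) above.

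Cytoskeleton and adhesion genes held single members at 1.5-fold. The shares lower were 1.52% of the actin list and 3.03% of the integrin list, against 1.02% of all kept genes. Of 66 actin, myosin and actin-binding genes, MYO9A, an unconventional myosin, was lower (-0.61) and the single one at 1.5-fold. TNS3 was the single one of 33 integrin and focal adhesion genes.

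PARD6B, a scaffold of the apical polarity complex, was at 8.80 in the siNC array, 7.74 in siTAZ and 7.76 in siYAP. Both knockdown arrays were low to nearly the same extent. It was the lowest of 56 cadherin, claudin and junction genes, in which MARVELD1, a membrane protein, was 0.86 higher. In the siYAP array MARVELD1 was 1.04 higher than in siNC. IFFO2, an intermediate filament family protein, was at 7.36, 6.08 and 6.85 and was the lowest of 27 keratin and filament genes, with KRT7 at -0.42, LMNB2 at 0.56 and VIM at 0.33.

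Matrix genes were lower more often than higher in the deposited values, where many are tied. With a loess trend subtracted 19 were lower and 18 higher, and after a new quantile normalization 16 and 18. Of 37 collagens, laminins and other matrix proteins, 11 were lower (29.7%), 23 identical and 3 higher (8.11%), against 21.7% lower and 29.7% higher over all kept genes. At 1.5-fold, THBS1 was lower (-0.70) and LUM, the proteoglycan lumican and a fibroblast marker, higher (0.69). LUM was at 7.45 in the siNC array, 8.14 in siTAZ and 8.10 in siYAP. All arrays are of a cell line, and the source of the LUM difference was not tested. The second kept fibroblast marker, THY1, was lower (-0.16). None of 50 matrix metalloproteinase, ADAM, TIMP and cathepsin genes reached 1.5-fold. TFPI2, a secreted inhibitor of serine proteases, was at 10.84 in the siNC array, 9.62 in siTAZ and 10.25 in siYAP, with siYAP between the others.

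**Figure D3:**
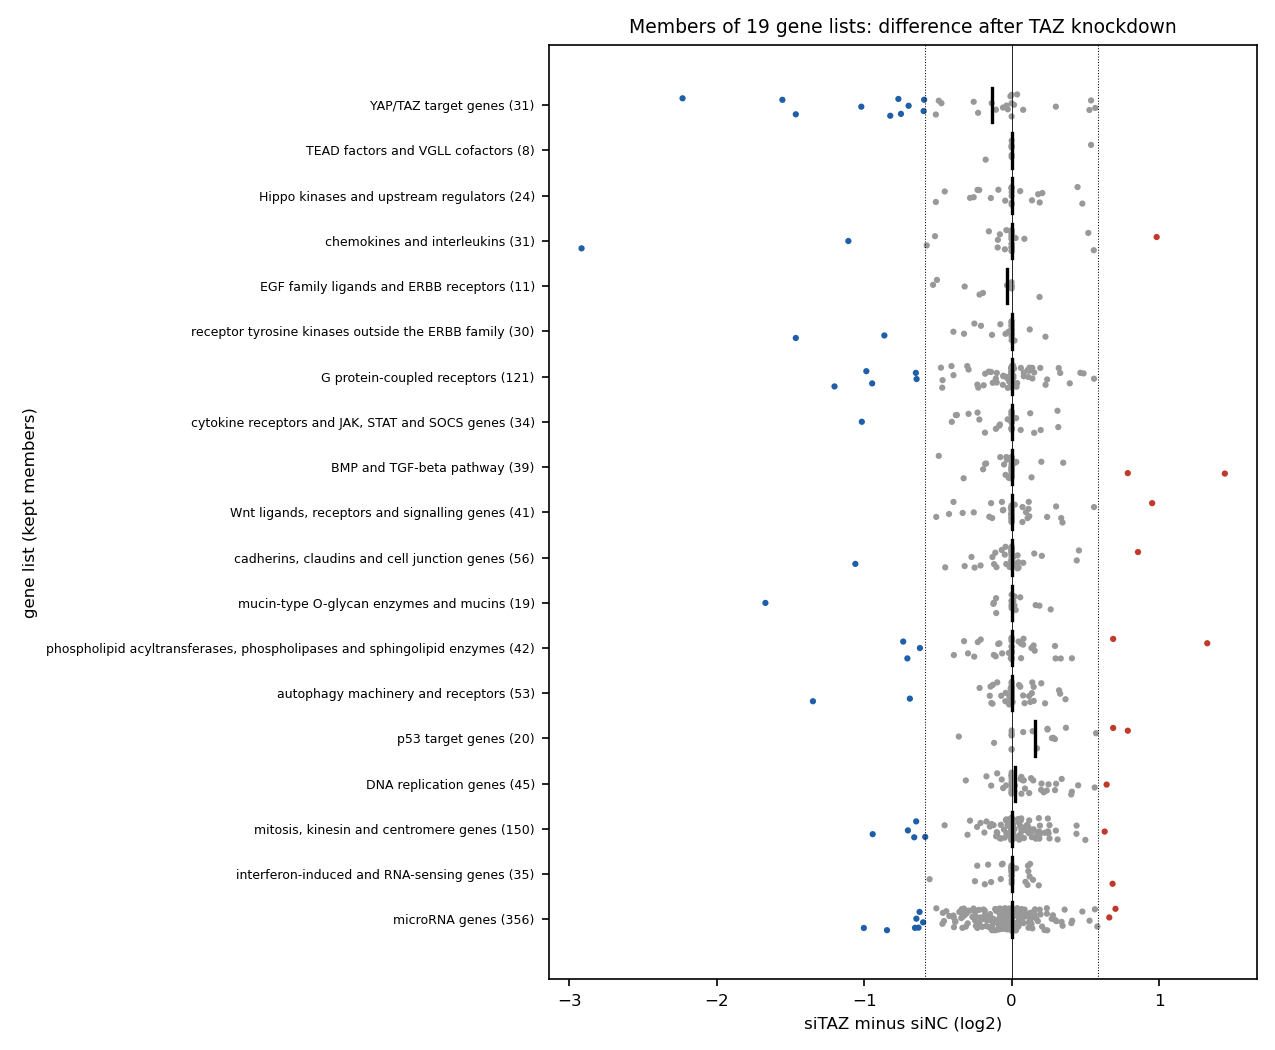
Members of selected gene lists, each point 1 gene, with the siTAZ minus siNC log2 difference on the horizontal axis, black bars at the medians, dotted lines at 1.5-fold and colour for genes past them. The YAP/TAZ target list has a median of -0.14 and the p53 target list one of 0.16.

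Glycosylation and lipid genes differed at 2-fold in both directions. GALNT1, which starts mucin-type O-glycans, was at 10.12 in the siNC array, 8.45 in siTAZ and 10.09 in siYAP. The siTAZ array alone was low, by 3.18-fold from siNC. It was the single one of 19 O-glycan enzyme and mucin genes at 1.5-fold. Among 51 other glycosyltransferases, GXYLT2, which adds xylose to Notch-type EGF repeats, was at 5.37, 6.38 and 6.10 in the same order, and EXTL2 was 0.73 higher. For GXYLT2 the siNC array was the lowest. POMK, a kinase that acts on the O-mannose glycan of dystroglycan, was lower (-0.95).

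HACD3, a dehydratase of very long chain fatty acid synthesis, was at 11.68 in the siNC array, 10.51 in siTAZ and 11.69 in siYAP. MBOAT1, a lysophospholipid acyltransferase, was at 7.15, 8.47 and 7.25. In both genes the siTAZ array stood apart from the other pair, low for HACD3 and high for MBOAT1. Of 42 phospholipid and sphingolipid enzymes, GPAT3 (-0.74), CDS2 (-0.71) and the sphingosine phosphate lyase SGPL1 (-0.62) were lower at 1.5-fold, and MBOAT1 and the ceramidase ACER2 (0.69) higher. ACBD5, a peroxisomal tether that binds acyl-CoA, was at 8.96, 7.90 and 8.82, low in the siTAZ array alone. GPD2, the mitochondrial glycerol phosphate dehydrogenase, was at 8.74, 7.61 and 8.49, again with the siTAZ array the low one. Of 23 cholesterol synthesis and uptake genes 13 were higher and 4 lower, and 0 reached 1.5-fold.

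Membrane traffic genes included AVL9 and CPNE3 at 2-fold. Of 41 RAB, ARF and TBC1D traffic genes, 4 were lower, 24 identical and 13 higher, and AVL9 alone reached 1.5-fold. AVL9, a protein of late secretory traffic, was at 8.96 in the siNC array, 7.74 in siTAZ and 8.59 in siYAP. CPNE3, a calcium-dependent membrane-binding copine, was at 7.83, 6.81 and 7.91, so siTAZ was the low array in both. Of 192 vesicle coat, SNARE and sorting genes, 35 were lower, 85 identical and 72 higher, with 3 lower and 2 higher at 1.5-fold, shares near the background. CPNE3, the SNARE STX3 (-0.85) and SYT17 (-0.77) were lower, and the endocytic adaptor EPN1 (0.66) and the ESCRT protein CHMP4C (0.61) higher. Of 45 ion channel genes, HCN2, a pacemaker channel, was the single one at 1.5-fold, at 6.04 in the siNC array, 7.47 in siTAZ and 7.63 in siYAP.

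SQSTM1, the autophagy receptor p62, was at 8.19 in the siNC array, 6.84 in siTAZ and 7.84 in siYAP. It was 2.54-fold lower in the siTAZ array, which stood apart from the other pair. Of 53 autophagy genes, TMEM41B, a lipid scramblase needed for autophagosomes, was also lower at 1.5-fold (-0.69), while 15 genes of the list were lower, 22 identical and 16 higher. Of 35 proteasome and ubiquitin E1 and E2 genes, UBA6, an E1 enzyme, was lower (-0.84), and USP37 was the single one of 66 deubiquitinating enzymes at 1.5-fold (-0.70). OSGIN2, an oxidative stress-induced growth inhibitor family gene, was at 8.68, 7.50 and 8.20. It was the single one at 1.5-fold on a list of 52 NRF2 target and redox genes that does not hold SQSTM1. None of 24 ER stress genes reached 1.5-fold. Of 35 heat shock and chaperonin genes, 6 were lower, 11 identical and 18 higher, and FKBP7, a peptidyl-prolyl isomerase, was the single one at 1.5-fold (0.69).

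Chromatin genes differed in single members. CBX5, the heterochromatin protein HP1 alpha, was at 8.37 in the siNC array, 7.33 in siTAZ and 8.07 in siYAP, lowest in siTAZ. Of 88 remodelling complex genes, PBRM1, a subunit of the PBAF complex, was lower (-0.96) and ARID5B higher (0.60). RNA-handling genes were similar in this respect: DCP2, the decapping enzyme, was lower (-0.63) among 43 mRNA decay genes. DCP2 was lower still in the siYAP array, at -1.17 from siNC. None of 147 splicing factor genes reached 1.5-fold.

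Cell cycle genes did not differ in 1 direction. Of 45 DNA replication genes, 24 were higher, 14 identical and 7 lower, with the thymidylate synthase TYMS at 0.64 and the sliding clamp PCNA at 0.56. Of 150 genes on a list of mitosis, kinesin and centromere genes, 55 were higher, 62 identical and 33 lower, and the 5 lower at 1.5-fold were KIF4A (-0.94), CEP20 (-0.70), KIF3C (-0.66), FOXM1 (-0.65) and KIF4B (-0.59), and the single one higher was the mitotic kinase PLK1 (0.63). The list also takes in transport kinesins such as KIF3C, and CDC23, a subunit of the anaphase-promoting complex (-0.80), is not on it. KIF4B is a near copy of KIF4A, so the signals of the pair may not be separate. Among 41 cyclin and CDK genes 0 reached 1.5-fold, with CDK6 at -0.55.

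The p53 target list had the highest median of the 81 lists with at least 5 kept members. The lists were chosen with earlier results of these data known, so this rank is a description. Of 20 genes, 12 were higher, 6 identical and 2 lower, with a median of 0.16. Over all kept genes 29.7% were higher and 21.7% lower. With the mean of the siNC and siYAP arrays as reference the list's median was 0.075. GDF15 and ACER2 reached 1.5-fold. GDF15 was at 7.97 in the siNC array, 8.75 in siTAZ and 8.21 in siYAP, and ACER2 at 5.86, 6.55 and 5.40. The siTAZ array was the highest for both, and for ACER2 the siYAP array was the lowest. CCNG1, a cyclin induced by p53, was at 0.57 and TP53INP1 at -0.36.

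Genes of protein synthesis and of the respiratory chain differed by small amounts and were higher more often than lower. Of 51 cytosolic ribosomal protein genes, 29 were higher (56.9%), 19 identical and 3 lower, and of 20 aminoacyl-tRNA synthetases 13 were higher, 7 identical and 0 lower. Nucleolar ribosome biogenesis factors had 44 of 81 higher and 12 lower, mitochondrial ribosomal proteins 41 of 83 higher and 14 lower, and respiratory chain subunits 25 of 51 higher and 5 lower. With a loess trend subtracted, which moves tied genes off 0, the mitochondrial ribosomal proteins split into 40 lower and 43 higher, and after a new quantile normalization into 38 and 43. In the same array 47.6% of all genes with a mean of 9 or over were higher and 33.0% lower, and bright genes are tied less often, so these shares are to be read beside the level; the part of level in them was not tested. The only members of these 5 lists at 1.5-fold were the nucleolar genes NOC4L (1.08) and UTP25 (-0.70).

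NOC4L, a nucleolar factor for the small ribosomal subunit, was at 6.20 in the siNC array, 7.28 in siTAZ and 7.36 in siYAP. SRM, the spermidine synthase, was at 9.25, 10.35 and 10.28. In both genes the knockdown arrays were high together. EIF5A2, a translation factor that carries the spermidine-derived residue hypusine, was at 7.33, 6.08 and 7.001, with siTAZ the low array. The polyamine list of 21 genes thus held SRM above 2-fold and EIF5A2 below it, with SMOX at 0.38 and SAT1 at -0.34.

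**Figure D4:**
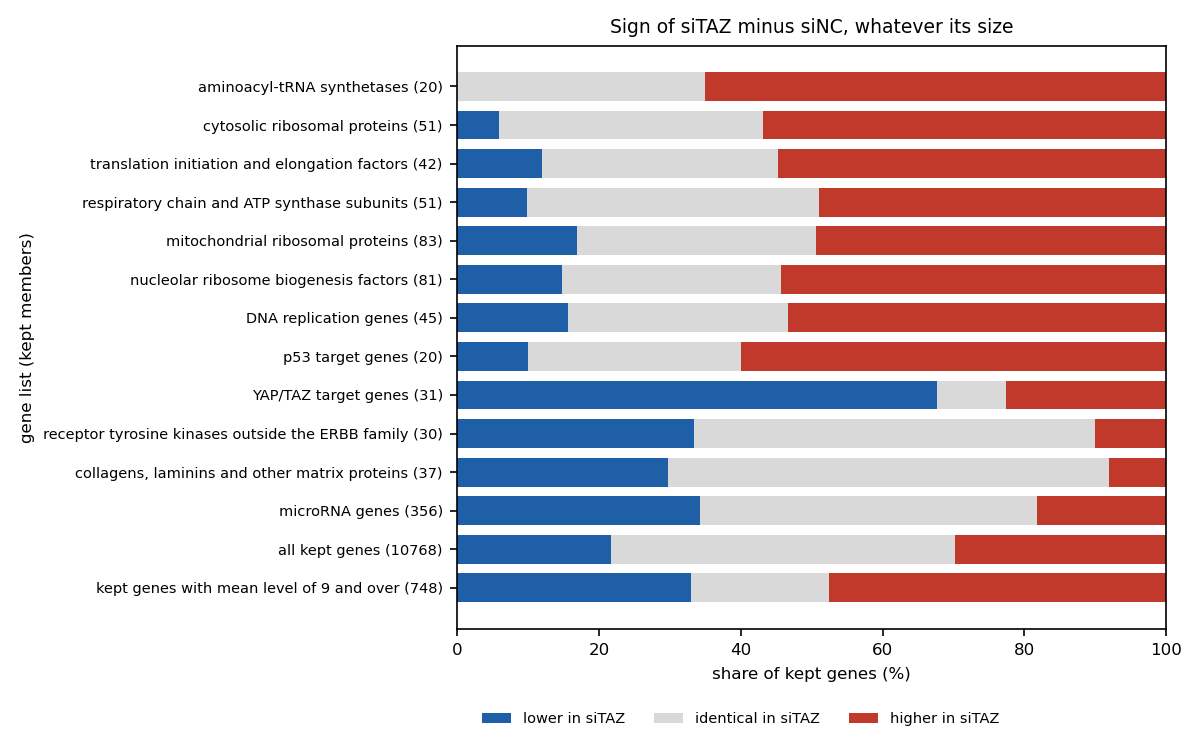
Shares of the kept members of selected lists that were lower, identical or higher in the siTAZ array than in the siNC array, in percent, beside the shares over all kept genes. Of the aminoacyl-tRNA synthetases 65.0% were higher, and of the YAP/TAZ targets 67.7% were lower.

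Interferon-induced genes were about as often lower as higher. Of 35 interferon-induced and RNA-sensing genes, 9 were lower, 16 identical and 10 higher, and IFIH1, the RNA sensor MDA5, was the single one at 1.5-fold (0.68), with 5.50 in the siYAP array against 5.56 in siTAZ and 4.88 in siNC. Of 85 tetraspanin and surface antigen genes, ULBP3, a ligand of the NKG2D receptor, was 0.89 higher. NCR3LG1, a ligand of another natural killer cell receptor, was 0.73 higher.

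The remaining genes at 2-fold were on none of the lists. MMD, a membrane protein of the progestin receptor family, was at 8.94 in the siNC array, 7.92 in siTAZ and 7.89 in siYAP, with both knockdown arrays low. OLFML3 was at 6.04, 5.03 and 5.49, lowest in siTAZ. HNRNPA1P33, a pseudogene of HNRNPA1, was at 8.15, 7.02 and 8.09, and its signal may come in part from its parent gene's family. Upward, F8A1 was at 9.73, 10.75 and 10.59 and TRANK1 at 4.76, 5.80 and 5.80, high in both knockdown arrays. F8A1 has near-identical copies, and its 6 probe sets were all higher; the 5 probe sets of TRANK1 ran from 0.19 to 1.34, with a mean of 0.63.

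MicroRNA genes were lower more often than the rest. Of 356 kept, 122 were lower (34.3%), 169 identical and 65 higher (18.3%), against 21.7% and 29.7% of all kept genes, and 7 were lower and 2 higher at 1.5-fold. A probe set of this kind reads RNA of the gene's locus and not the mature microRNA. MIR4454 was at 6.47 in the siNC array and 5.47 in both the siTAZ and siYAP arrays, the same on 3 identical probe sets. MIR4529 (-0.85) and MIR4326 (-0.66) were lower. MIR4267 was 0.70 higher on its brightest probe set and 0.05 on the other.

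RefSeq's mature sequences, on GRCh38.p14, were matched for 8 of the 9 genes and are shown with the seed, bases 2 to 8, in capitals, to show whether these genes share a seed.
hsa-miR-4454: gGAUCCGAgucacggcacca
hsa-miR-4529-5p: aGGCCAUCagcaguccaaugaa
hsa-miR-4529-3p: aUUGGACUgcugauggcccgu
hsa-miR-4258: cCCCGCCAccgccuugg
hsa-miR-665: aCCAGGAGgcugaggccccu
hsa-miR-3198: gUGGAGUCcuggggaauggaga
hsa-miR-3928-3p: gGAGGAACcuuggagcuucggc
hsa-miR-657: gGCAGGUUcucacccucucuagg
hsa-miR-4267: uCCAGCUCgguggcac

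The 9 seeds of these matures, from 8 genes, were all different; MIR4326 was not among them. Of other RNA classes, 460 kept long intergenic and antisense RNA genes had 95 lower, 288 identical and 77 higher. LINC01433 was the single one of this list at 1.5-fold (0.82). The list does not hold every long non-coding RNA. By annotated class 595 kept genes were of that kind, with 0 lower and 4 higher at 1.5-fold, LINC01433 among them. That is 0.672% higher, against 0.762% of all kept genes. LINC01433 was at 6.82 in the siNC array, 7.64 in siTAZ and 8.05 in siYAP, highest in siYAP. None of 18 small nucleolar RNA genes reached 1.5-fold.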

How the data were processed

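RNA of 3 transfected A549 cultures was hybridised to 1-colour whole-transcript arrays, 1 array per group. The authors summarised the arrays with RMA, per the submitters' processing notes; its version was not given in the sources used here, nor were the annotation and the array's build. The deposited values are read as log2, from their range and near-equal array medians (4.28, 4.26 and 4.27). Quantile normalization makes every value relative to its own array. The number of arrays limits the precision.

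Of 53617 probe sets, 16098 had 1 symbol in the platform's annotation; the other 37519 were unnamed. The brightest probe set by mean over the 3 arrays stood for its gene, and genes with a mean under the 50th percentile of all probe sets (4.27) were left out. Differences were subtracted per gene and counted at 2-fold and 1.5-fold with Python 3.11.15, numpy 2.4.6 and pandas 2.3.3; the counting was tested on simulated data. No p-value was possible with 1 array per group.

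The 86 gene lists and the members were chosen with earlier results of these data known, and symbols that a name pattern had caught wrongly were removed after values were seen. Named were all 2-fold genes, up to 6 genes per direction of a list, and a few fixed Hippo genes; TWSG1, POMK and NCR3LG1 were named as part of the 1.5-fold count, and EPCAM, KRT18 and PECAM1, as cell type markers, and CDC23 after their values were seen. Motif letters were searched on both strands of the 250 bases before each start. Alternatives were the filter, centring, a loess trend (span 0.4, statsmodels 0.14.6), new quantile normalization, the mean of a gene's probe sets, leaving out ties, and another reference.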

Additional observations from a re-analysis of the deposited data

Results flagged for a closer look

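Probe sets with no gene symbol carried differences that no comparison above uses. Of 15272 unnamed probe sets with a mean at or above 4.27, 102 had a siTAZ level lower than siNC by 2-fold or more and 68 a higher one. Their differences ran from -2.40 to 2.68, and 44.9% of them had identical values on both arrays.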

How the results depend on the processing

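No paired analysis was possible because each group has 1 array. With the mean of the siNC and siYAP arrays as the reference in place of siNC, the counts became 13 lower and 1 higher at 2-fold, and 67 lower and 25 higher at 1.5-fold; 12 of the 26 and 1 of the 8 genes called at 2-fold were still called. This reference holds the YAP knockdown, so genes low or high in both knockdown arrays lose part of their difference by construction. Under the other alternatives all 4 counts stayed within 1.5 times, and 0 named results reversed under any of them. When a gene's probe sets were averaged, CCN2 was at -0.79 and TRANK1 at 0.63. A filter at the 75th percentile kept 6394 genes, and left out 3 of the 26 and 1 of the 8. With tied genes left out, the median over all genes was 0.03 and that of the YAP/TAZ target list -0.24. Without replicate arrays, none of these settings measures the spread between cultures.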
